A study of Mus musculus with 6 samples.

Results

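Chondroitin sulfate synthesis was followed through 8 genes, which encode enzymes of successive steps of chain making and 1 carrier protein: Xylt1, Csgalnact1, Csgalnact2, Chsy1, Chsy3, Chpf, Chst11 and Vcan. They were chosen by name from the 32285 genes of the count matrices, because Chsy3 differed between treatments in lung fibroblasts and the question was whether Chsy3 stood alone or the pathway moved with it. The data were single-cell RNA-Seq counts of digested lung, 1 library per mouse, from 6 male hCTLA4 mice aged 12 weeks, whose own Ctla4 gene carries exons of the human gene so that the antibody can bind. All 6 mice received bleomycin, which injures the lung and leads to fibrosis, in 2 doses of 1.25 U/kg given 2 weeks apart. Treatment ran from day 21 for 4.5 weeks, and the study counts that day from the last bleomycin dose. Of the 6 mice, 3 received control isotype IgG1 and 3 received the antibody labelled anti-CLTA4 mAb, which the methods name as ipilimumab, at 5 mg/kg. No uninjured mice were among the 6, so every comparison of treatments is between bleomycin-injured lungs.

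Chondroitin sulfate is a long, unbranched and sulfated sugar chain that is built in the Golgi on a core protein. Xylosyltransferase 1, encoded by Xylt1, attaches the starting xylose of the linker that chondroitin and heparan sulfate chains share. The N-acetylgalactosaminyltransferases of Csgalnact1 and Csgalnact2 add the sugar that commits the linker to chondroitin, and Chsy1, Chsy3 and Chpf encode the synthases and the polymerizing factor that lengthen the chain in pairs. Chst11 encodes a sulfotransferase that acts on the N-acetylgalactosamine of the chain, and Vcan encodes versican, a large matrix proteoglycan that carries such chains. Fibroblasts are a main source of this matrix, and versican is known to gather in injured and fibrotic lung.

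The 8 genes lie on 7 chromosomes of GRCm38 (mm10; GENCODE vM21 gene models). Chsy3 (ENSMUSG00000058152) spans chr18:59175401-59535999 on the plus strand, a locus of 360.6 kb that no other annotated gene overlaps. Chsy1 (ENSMUSG00000032640) is at chr7:66109515-66173798 and Xylt1 (ENSMUSG00000030657) at chr7:117380979-117673580, both on the plus strand. Chpf (ENSMUSG00000032997) is at chr1:75474569-75479307, Csgalnact1 (ENSMUSG00000036356) at chr8:68356781-68735146 and Csgalnact2 (ENSMUSG00000042042) at chr6:118107452-118139140, all on the minus strand. Chst11 (ENSMUSG00000034612) is at chr10:82985498-83195900 on the plus strand and Vcan (ENSMUSG00000021614) at chr13:89655312-89742509 on the minus strand. No protein-coding gene overlaps any of the 8, but on the same strand Csgalnact2 overlaps Gm23908 and Xylt1 overlaps Gm45153, so reads could be shared there.

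Cells were assigned to types by marker genes, without any of the 8 genes: a cell entered the gate of a type when at least 3 of that type's 8 markers had a unique molecular identifier (UMI, 1 captured mRNA molecule) and that number led the other types by at least 2. No lead was required between pericytes and smooth muscle cells or between classical and nonclassical monocytes. These were split by the larger number of markers, with ties going to pericytes and to classical monocytes. Of 24263 cells, 22340 were gated and 1923 were not. The libraries held between 37666042 and 48612412 UMIs and gave 3270 to 4350 cells each. The library of ipilimumab replicate 1 stood apart, with 78.9% of its UMIs in called cells against 92.4% to 93.1% in the other 5. Among its 45000 largest barcodes, those not called as cells averaged 206 UMIs, against 46.3 to 53.9 in the other 5. The Chsy3 levels of fibroblasts are therefore given by mouse. Across libraries 61 cell barcodes occurred more than once. A level below is UMIs of the gene per 1000000 UMIs of all cells of the gate in 1 mouse (CPM). A gene was called different where edgeR's quasi-likelihood test across all genes tested gave a Benjamini-Hochberg adjusted p below 0.05 and the log2 fold change exceeded 0.3 in either direction.

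Chsy3 was found in few cell types. Its mean level was highest in the alveolar fibroblast gate, the fibroblasts of the gas-exchange walls, at 577 ± 484 CPM (SD, n = 4 mice with at least 5 such cells). Pericytes and smooth muscle cells, the contractile cells around vessels and airways that formed 1 gate, followed at 281 ± 283 CPM (SD, n = 3). Then came dendritic cells, which present antigen to T cells, at 122 ± 58.1 CPM (SD, n = 6), adventitial fibroblasts, which lie in the cuffs around vessels and airways, at 58.7 ± 27.5 CPM (SD, n = 6), and general capillary endothelium at 28.7 ± 14.4 CPM (SD, n = 6). Every other gate averaged 11.1 CPM or less. Neighbours in this order overlapped between mice all the way down, so the order is one of means. Of the 4 mice behind the alveolar mean, 3 received ipilimumab, and their fibroblast counts chose the gene, so its first rank is a description. The IgG1 mouse among them stood at 63.8 CPM, below the dendritic cells of the IgG1 mice (104 to 230 CPM).

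A Chsy3 UMI was seen in 37 of 63 alveolar fibroblasts, or 58.7% (exact binomial 95% interval 45.6% to 71.0%), in 52 of 125 dendritic cells (41.6%, 32.9% to 50.8%), in 77 of 333 adventitial fibroblasts (23.1%, 18.7% to 28.0%) and in 35 of 607 general capillary cells (5.77%, 4.05% to 7.93%). In B cells, which should lack the enzyme's transcript and so show the background of free RNA, the share was 0.210% of 8582 cells. Depth differed, with median totals of 11614 UMIs in alveolar fibroblasts, 20020 in dendritic cells, 7970 in adventitial fibroblasts, 3654 in general capillary cells and 5597 in B cells. After each cell was thinned to 1000 UMIs, the shares were 35.1%, 6.40%, 4.38%, 2.51% and 0.0351% in the same order, and 6, 0, 36, 49 and 40 shallower cells were left out. Within the contractile gate the transcript lay in smooth muscle cells, with 50 UMIs in 7 of 17 cells, while 14 pericytes held 1 UMI. These intervals cover counting error and not the spread between mice. Alveolar fibroblasts with a Chsy3 UMI were 2 of 2, 2 of 6 and 0 of 3 in IgG1 replicates 1 to 3. In ipilimumab replicates 1 to 3 they were 21 of 31, 4 of 8 and 8 of 13. Most alveolar cells thus came from ipilimumab mice. Fibroblast counts also chose the gene, so the shares of both fibroblast subsets are a description.

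**Figure D1:**
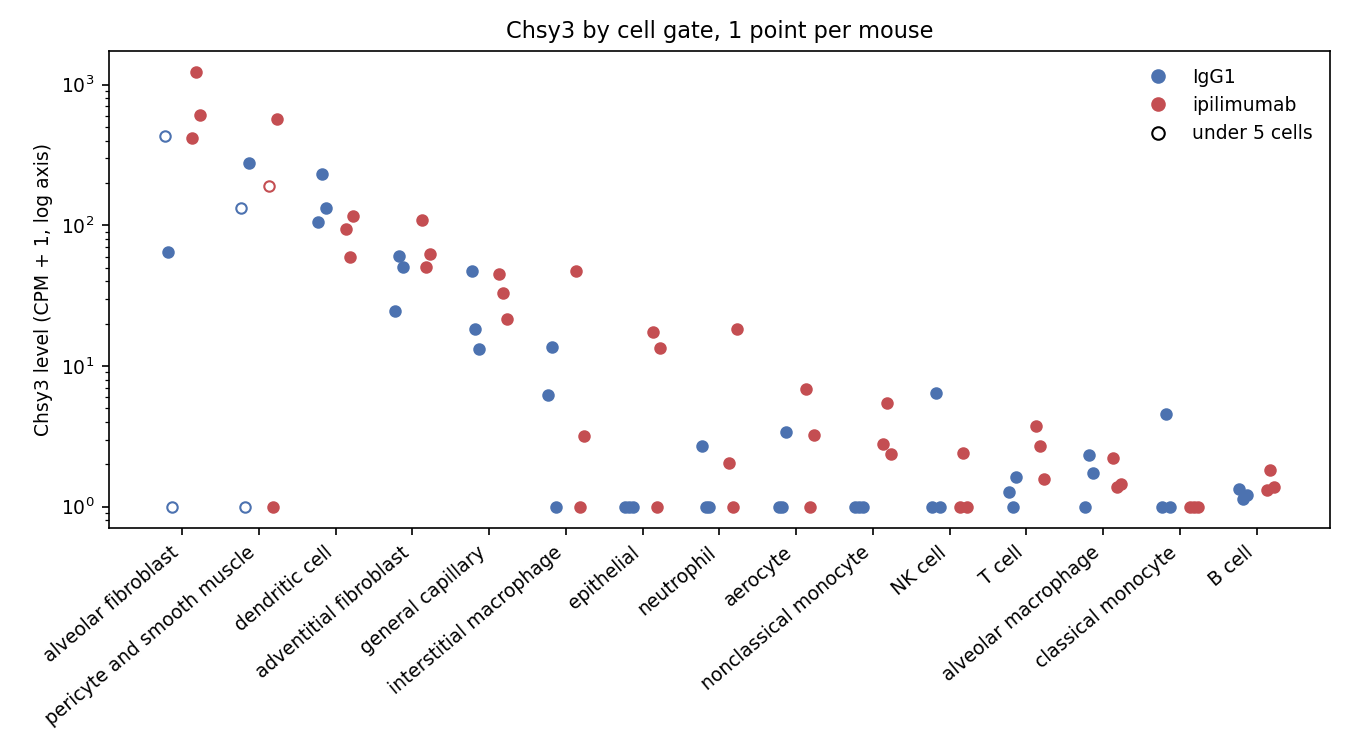
Chsy3 level (CPM + 1, log axis) by cell type gate, with 1 point per mouse coloured by treatment and open points from under 5 cells. The alveolar fibroblast, contractile and dendritic cell gates have the highest means (577, 281 and 122 CPM), and the B cell gate the lowest. Of the 4 mice behind the alveolar mean, 3 received ipilimumab, and their fibroblast counts chose the gene.

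Within fibroblasts, the mean Chsy3 level was higher in the alveolar than in the adventitial subset. Subsets were set by the larger UMI sum of 8 alveolar markers (Npnt, Itga8 and others) or 8 adventitial markers (Pi16, Lum and others). Npnt was seen in 84.1% of alveolar and 10.2% of adventitial cells, whereas Pi16 was seen in 11.1% and 67.6%. Other markers were shared more widely, with Inmt in 96.8% and 79.0% and Tcf21 in 73.0% and 54.7%. Likewise Dpt was seen in 65.1% and 87.1% and Clec3b in 69.8% and 91.6%. The same markers set the split, so these shares do not test it. In the 4 mice that had at least 5 cells of both subsets, Chsy3 was 63.8 CPM in alveolar against 59.8 CPM in adventitial cells of IgG1 replicate 2. The alveolar and adventitial values were 420 against 108 CPM, 1220 against 49.9 CPM and 606 against 61.2 CPM in ipilimumab replicates 1, 2 and 3. Alveolar cells were thus higher in all 4 mice, by little in the IgG1 mouse and widely in the 3 ipilimumab mice. IgG1 replicates 1 and 3, with 2 and 3 alveolar cells, did not enter this comparison, and their values were 430 against 23.8 CPM and 0 against 49.8 CPM.

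With the mouse as a block, Chsy3 was higher in alveolar than adventitial fibroblasts by 2.64 on the log2 scale (SE 0.46, 4 mice), which is 6.22-fold. Of the 331 alveolar Chsy3 UMIs in these mice, 325 came from the 3 ipilimumab mice, whose fibroblast counts also chose the gene, so this difference is a description without a test. Over 13 alternative analyses it lay between 2.06 and 3.12. Among these was the omission of 1 cell of ipilimumab replicate 2 that carried 71 Chsy3 UMIs, which gave a log2 difference of 2.07. Of all genes tested, 14.6% were called between the subsets (7.54% higher and 7.07% lower in alveolar cells). Of the 8 chondroitin genes, 5 passed edgeR's filter on low counts within each subset alone, and of the 4 besides Chsy3, 1 was called (Vcan, lower).

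Vcan was lower in alveolar fibroblasts (log2 difference -1.07, SE 0.33, edgeR adjusted p = 0.0357), a call that was lost in 5 of the 13 alternatives, without any 1 of the 3 ipilimumab mice among them. Xylt1 and Chst11 passed the count filter through the adventitial cells alone, where they were higher, so their direction was set by it and their values are given as levels. Xylt1 stood at 35.0 ± 17.7 CPM in alveolar (n = 4) and 116 ± 44.1 CPM in adventitial fibroblasts (SD, n = 6), and Chst11 at 41.4 ± 12.9 CPM in alveolar and 86.1 ± 31.05 CPM in adventitial fibroblasts (n = 4 and 6). Chsy1 (0.21), Csgalnact1 (0.09), Chpf (-0.07) and Csgalnact2 (-0.79) were not called. The difference between Chsy3 and those genes was not itself tested.

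Among 53 further genes of chondroitin, heparan and hyaluronan metabolism, 28 were tested between the subsets, 12 of which passed the count filter within each subset. Of these 12, 4 were called. The 14.6% over all genes tested includes genes that passed the filter through 1 subset alone, so the 2 shares are not of like sets. Ext1, a heparan sulfate polymerase, was higher in alveolar fibroblasts (log2 difference 1.36, edgeR adjusted p = 0.00547). Dcn, which encodes the small proteoglycan decorin (-3.19), Has1, a hyaluronan synthase (-2.42), and Hexa, a lysosomal hexosaminidase that trims such chains (-1.37), were lower.

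Between treatments, Chsy3 in fibroblasts is the value for which these genes were chosen, so it is described here without a test. The fibroblast gate held 32, 42 and 66 cells in IgG1 replicates 1 to 3 and 125, 44 and 89 cells in ipilimumab replicates 1 to 3. Of its 398 cells, 51 met a limit of the gate exactly, and the median cell had 7 of the 8 markers. The Chsy3 level was 42.2, 60.6 and 44.8 CPM in the IgG1 mice (13, 29 and 28 UMIs). In the ipilimumab mice it was 219, 223 and 142 CPM (231, 105 and 129 UMIs). The groups did not overlap: every ipilimumab mouse lay above every IgG1 mouse. The fitted log2 fold change was 1.96 (SE 0.25) or 3.90-fold, and it ranged from 1.36 to 2.14 over 16 alternative analyses. Chsy3 was 1 gene called of the 7046 tested in this gate (0.0142%), and nothing is read from that, since it chose the gene.

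**Figure D2:**
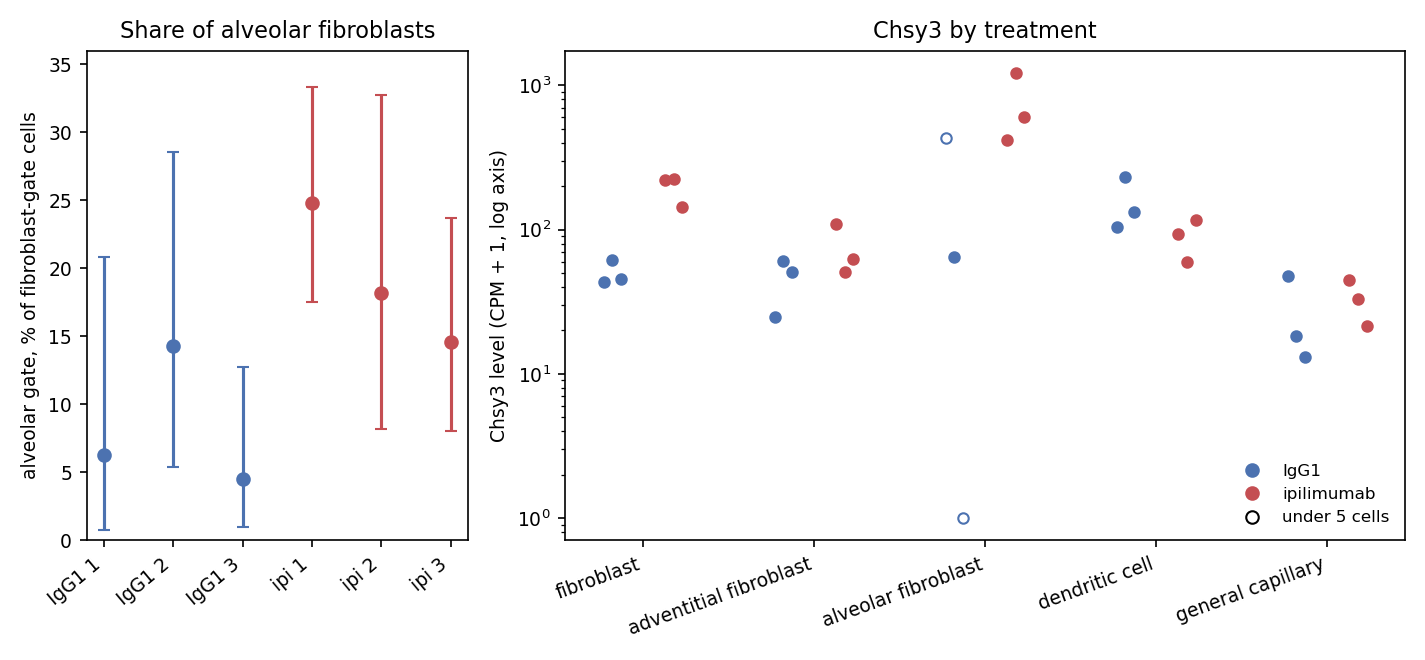
Left, the share of fibroblast-gate cells that were alveolar in each mouse (percent, bars of the exact binomial 95% interval, counting error only). Right, Chsy3 level (CPM + 1, log axis) in 5 gates, with 1 point per mouse coloured by treatment and open points from under 5 cells. All fibroblasts of the 3 ipilimumab mice lie between 142 and 223 CPM and those of the IgG1 mice between 42.2 and 60.6 CPM, while the groups overlap in the other 4 gates.

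The Chsy3 UMIs were spread unevenly over the cells. In ipilimumab replicate 2, 1 alveolar fibroblast with 14092 UMIs in total held 71 of the 105 Chsy3 UMIs, and without it the level of that mouse was 74.5 CPM (34 UMIs in 43 cells). The fitted log2 fold change over the 6 mice was then 1.58 (SE 0.35), still with all ipilimumab mice above all IgG1 mice. Alveolar fibroblasts supplied 68.4%, 81.0% and 63.6% of the Chsy3 UMIs of the fibroblast gate in ipilimumab replicates 1, 2 and 3. In IgG1 replicates 1, 2 and 3 they supplied 46.2%, 20.7% and 0%.

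Within the alveolar subset, Chsy3 was 430, 63.8 and 0 CPM in the IgG1 mice, from 2, 6 and 3 cells. It was 420, 1220 and 606 CPM in the ipilimumab mice, from 31, 8 and 13 cells. The groups overlapped, and with at most 6 UMIs in any IgG1 mouse a difference in level within this subset was not resolvable at this depth. Adventitial fibroblasts, with 30, 36 and 63 cells in the IgG1 mice and 93, 36 and 75 in the ipilimumab mice, gave 23.8, 59.8 and 49.8 CPM against 108, 49.9 and 61.2 CPM. These overlapped as well, with a fitted log2 fold change of 0.69 (SE 0.36) that was 0.33 without ipilimumab replicate 1. The median adventitial cell of that mouse had 1993 UMIs, against 7173 to 11808.5 in the other mice.

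The makeup of the fibroblast gate moved alongside. Alveolar cells were 6.25%, 14.3% and 4.55% of the fibroblasts in IgG1 replicates 1 to 3 and 24.8%, 18.2% and 14.6% in ipilimumab replicates 1 to 3. The means were 8.36% ± 5.20 and 19.2% ± 5.17 (SD, n = 3 each), the mice of the groups did not overlap, and a two-sided exact permutation test gave p = 0.1, the smallest that 3 against 3 mice allow. Measured as a share of the fibroblast gate's UMIs, alveolar cells took 11.5% ± 7.63 and 21.8% ± 12.03 (SD, n = 3 each; exact permutation p = 0.4). How much of the Chsy3 difference goes with the share of alveolar cells and how much with the level in each was not tested. In the same gate the summed level of 8 classical monocyte markers was 14.4 to 25.1 CPM in IgG1 mice and 74.9 to 168 CPM in ipilimumab mice, and its part in the result was not tested. The 8 B cell markers summed to 422 to 779 CPM in IgG1 mice and 319 to 765 CPM in ipilimumab mice, those of blood endothelium to 104 to 201 and 133 to 174 CPM, and those of nonclassical monocytes to 73.1 to 110 and 64.5 to 138 CPM. The epithelial, lymphatic and Schwann cell lists each stood at 8.53 CPM or less in every mouse. Smooth muscle markers summed to 74.6 to 129 CPM in IgG1 mice and 104 to 189 CPM in ipilimumab mice. In the same order, dendritic cell markers summed to 6.49 to 14.6 and 12.8 to 39.8 CPM. Neutrophil markers summed to 3.20 to 29.2 and 12.8 to 71.1 CPM. T cell markers summed to 2.09 to 6.39 and 2.13 to 36.03 CPM. The groups overlapped in each of these lists, the highest value was that of ipilimumab replicate 1, and their part in the result was not tested.

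No other chondroitin gene separated the treatments in fibroblasts to a like degree, and since the genes were chosen on this contrast their values too are a description. Xylt1 was 74.6, 81.5 and 84.7 CPM in the IgG1 mice and 132, 138 and 84.8 CPM in the ipilimumab mice, which do not overlap but touch (log2 fold change 0.53, SE 0.23). In this gate 14.3% of the genes tested had groups that did not overlap. Among the genes that act beside Chsy3, Chsy1 had a log2 fold change of 0.43 (SE 0.40) and Chpf of -0.28 (SE 0.26), and their groups overlapped. The initiating enzymes gave 0.46 (SE 0.30) for Csgalnact1 and -0.17 (SE 0.30) for Csgalnact2.

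Chst11 stood at 0.25 (SE 0.25) and Vcan at 0.31 (SE 0.29), with versican transcripts at 273, 153 and 133 CPM in IgG1 mice against 308, 179 and 186 CPM in ipilimumab mice. The median over the 8 genes was 0.37, beside -0.01 over all genes tested. Of the 53 further pathway genes, 30 were tested in fibroblasts and 0 were called by edgeR or by DESeq2, with a median of -0.07. At an unadjusted edgeR p under 0.05 were 6 of these 30, beside 612 of the 7046 genes tested. Chsy3 had a fitted change of 1.96, and the next largest of the 8 was the 0.53 of Xylt1.

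**Figure D3:**
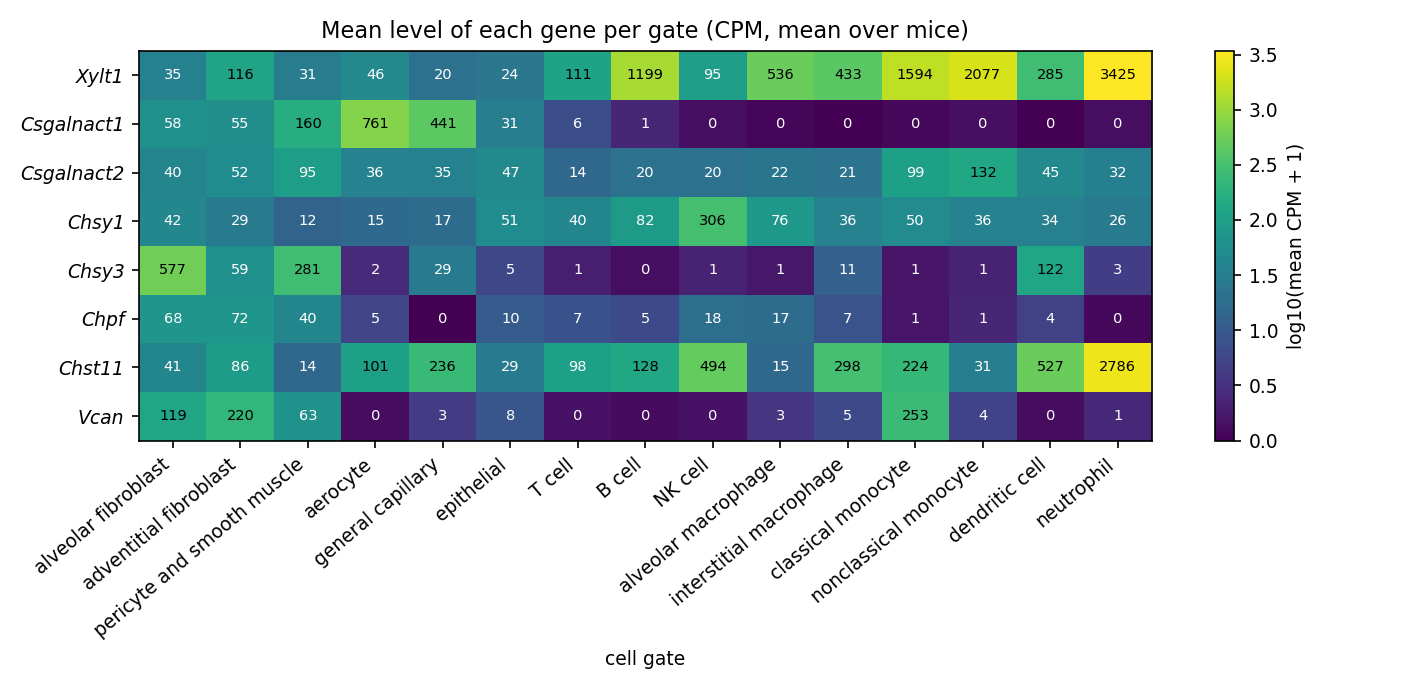
Mean level of each of the 8 genes over mice with at least 5 cells (CPM as printed, colour on a log10(CPM + 1) scale) across the cell type gates. The leading gates differ between genes: Chsy3 is high in alveolar fibroblasts, Csgalnact1 in aerocytes, Xylt1 and Chst11 in neutrophils, Chsy1 in NK cells, and Vcan in classical monocytes and fibroblasts. The Chsy3 values of fibroblasts are a description, since those counts chose the gene.

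Outside fibroblasts, treatments were compared in 10 gates with 3 mice in both groups, of which general capillary cells and aerocytes are subsets of blood endothelium, and no gene of the 8 was called in them. In these gates 50 tests of the 8 genes gave 0 calls by edgeR, 5 at an unadjusted p under 0.05 and 0 by DESeq2. There, between 0% and 0.121% of all genes were called. The 53 further pathway genes gave 0 calls in 249 tests by edgeR, 12 at an unadjusted p under 0.05 and 0 by DESeq2. The share of all genes under that unadjusted p was not pooled over these gates, so nothing is read from these counts. The alveolar fibroblast gate and the contractile gate had only 1 IgG1 mouse with 5 or more cells, so no comparison of treatments in them rests on replicated controls. In the contractile gate, where 11.3% of genes were called, 2 of the 8 genes could be tested and neither was.

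Chsy3 in blood endothelium was 28.4, 7.75 and 5.84 CPM in IgG1 mice and 27.0, 19.0 and 13.2 CPM in ipilimumab mice. These overlapped (log2 fold change 0.38, SE 0.51, edgeR adjusted p = 0.878), and leaving out IgG1 replicate 3 gave -0.036, whereas leaving out IgG1 replicate 1 gave 1.64 (edgeR adjusted p = 0.208). The transcript lay mostly in the general capillary gate, with 46.7, 17.3 and 12.1 CPM against 43.8, 31.9 and 20.6 CPM. It was higher there than in aerocytes, the wide capillary cells of the gas-exchange surface, in 6 of 6 mice. Endothelium was split by aerocyte or general capillary markers alone, so other endothelial types were not set apart. In the blood endothelial gate 4 lymphatic markers summed to 490 to 1717 CPM in IgG1 mice and 548 to 972 CPM in ipilimumab mice. In dendritic cells Chsy3 was 104, 230 and 131 CPM in IgG1 mice and 93.1, 58.7 and 115 CPM in ipilimumab mice. The fitted log2 fold change there was -0.82 (SE 0.37), with an edgeR adjusted p of 0.9998, and the groups overlapped, as they did for all but 8.93% of the genes tested there. Xylt1 in dendritic cells was lower with ipilimumab without overlap, though the groups touched and it was not called. Its levels were 286 to 352 CPM in IgG1 mice and 168 to 284 CPM in ipilimumab mice. Of the 125 dendritic cells, 72 met a limit of their gate exactly.

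In B cells, Xylt1 was 1087, 1133 and 1096 CPM in IgG1 mice and 1226, 1228 and 1422 CPM in ipilimumab mice, without overlap, in a gate where 11.9% of tested genes did not overlap. Its log2 fold change of 0.23 (SE 0.08) did not pass (edgeR adjusted p = 0.724). Chsy1 was 89.2, 85.7 and 91.7 CPM against 84.0, 71.0 and 72.9 CPM, a log2 fold change of -0.22 (SE 0.08) with the same adjusted p.

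In monocytes, where 0.0793% of all genes were called and 14.7% had groups that did not overlap, Vcan was 115, 331 and 168 CPM in IgG1 mice and 65.5, 41.3 and 177 CPM in ipilimumab mice. The log2 fold change of -1.17 (SE 0.48) did not pass (edgeR adjusted p = 0.456), though it was called without ipilimumab replicate 3 (-2.00, edgeR adjusted p = 0.0416) and when lowly counted genes were kept. Versican transcripts were mostly those of classical monocytes, at 254 ± 127 CPM (SD, n = 6) against 4.15 ± 1.54 CPM in nonclassical monocytes, and classical cells were higher in 6 of 6 mice. Classical cells made up 59.2%, 61.8% and 50.9% of the monocytes in IgG1 mice and 33.0%, 18.5% and 43.9% in ipilimumab mice (two-sided exact permutation p = 0.1, the smallest possible). Among classical monocytes alone Vcan was 159, 457 and 285 CPM against 151, 141 and 327 CPM, which overlap.

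The other 7 genes were led by different cell types, with neutrophils leading for both Xylt1 and Chst11. Xylt1 was led by neutrophils at 3425 ± 192 CPM, then nonclassical monocytes at 2077 ± 136, classical monocytes at 1594 ± 178 and B cells at 1199 ± 125 CPM (SD, n = 6 each). Neutrophils did not overlap with any other gate, nonclassical exceeded classical monocytes in 6 of 6 mice, and adventitial fibroblasts, at 116 ± 44.1 CPM, were far below. Endothelium had little, and 1 mouse set its spread: the values were 10.9, 134 and 21.9 CPM in IgG1 mice and 22.9, 14.3 and 2.65 CPM in ipilimumab mice (log2 fold change -1.77, SE 0.80, edgeR adjusted p = 0.495). It was called when lowly counted genes were kept (-1.75, edgeR adjusted p = 9.53e-05) and was positive with Leiden clusters (1.87).

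The initiating enzymes divided between lineages. Csgalnact1 was an endothelial gene here, with 761 ± 80.6 CPM in aerocytes and 441 ± 125 CPM in general capillary cells (SD, n = 6 each), the former higher in 6 of 6 mice. Fibroblasts held 55.1 ± 16.7 CPM, and 0 UMIs were found in 125 dendritic cells or in 98 interstitial macrophages. Csgalnact2 was instead highest in nonclassical monocytes at 132 ± 22.1 CPM and classical monocytes at 99.1 ± 13.05 CPM (SD, n = 6 each), which overlapped. Fibroblasts held 49.9 ± 11.5 CPM of it, against 35.4 ± 13.9 CPM in blood endothelium.

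Of the chain-lengthening genes, Chsy1 was highest in NK cells at 306 ± 30.8 CPM (SD, n = 6), where 77.3% of cells had a UMI, and no mouse's value in any other gate reached that of the lowest NK sample. B cells came next at 82.4 ± 8.57 CPM, and fibroblasts held 28.8 ± 10.4 CPM. Chpf was highest in adventitial (71.8 ± 14.2 CPM, n = 6) and alveolar fibroblasts (68.1 ± 21.9 CPM, n = 4), which overlapped, and 0 UMIs were found in 607 general capillary cells. By mean level a fibroblast subset thus led for Chsy3 and Chpf, and NK cells for Chsy1. For Chsy3 this lead is a description, since its fibroblast counts chose the gene.

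The sulfotransferase gene Chst11 was highest in neutrophils at 2786 ± 327 CPM, without overlap with the next gate, dendritic cells at 527 ± 277 CPM (SD, n = 6 each). NK cells were close to these at 494 ± 54.0 CPM. General capillary cells were above aerocytes in 6 of 6 mice (236 ± 60.7 against 101 ± 26.1 CPM), the reverse of the order of Csgalnact1. Vcan was highest in 2 gates, classical monocytes and adventitial fibroblasts (220 ± 85.3 CPM), which overlapped, and 1 UMI was found among 125 dendritic cells.

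Fibroblasts and blood endothelium, the largest structural gates, could be compared in 6 genes that passed the count filter within each of them. Those besides Chsy3 were all called, where 64.3% of all genes tested were, including genes that passed the filter through 1 gate alone. Chsy3 was higher in fibroblasts by 2.95 on the log2 scale (SE 0.31, 6 mice), or 7.74-fold. The fibroblast counts of Chsy3 also chose the gene, so this difference is a description without a test. In the IgG1 mice alone, where the choice favoured low values, the levels were 42.2, 60.6 and 44.8 CPM in fibroblasts against 28.4, 7.75 and 5.84 CPM in endothelium. Xylt1 (2.30, SE 0.45), Chsy1 (0.98, SE 0.28) and Csgalnact2 (0.66, SE 0.21) were also higher, with edgeR adjusted p between 0.000483 and 0.0134. Csgalnact1 (-3.16, SE 0.18) and Chst11 (-1.02, SE 0.18) were lower. Each of these calls held in all 13 alternatives. Vcan and Chpf passed the filter through fibroblasts alone, at 205 ± 69.7 and 71.5 ± 13.6 CPM (SD, n = 6 each), and 11 and 8 UMIs of them were found in 989 endothelial cells. Of all genes tested, 32.8% were higher in fibroblasts and 31.5% lower.

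**Figure D4:**
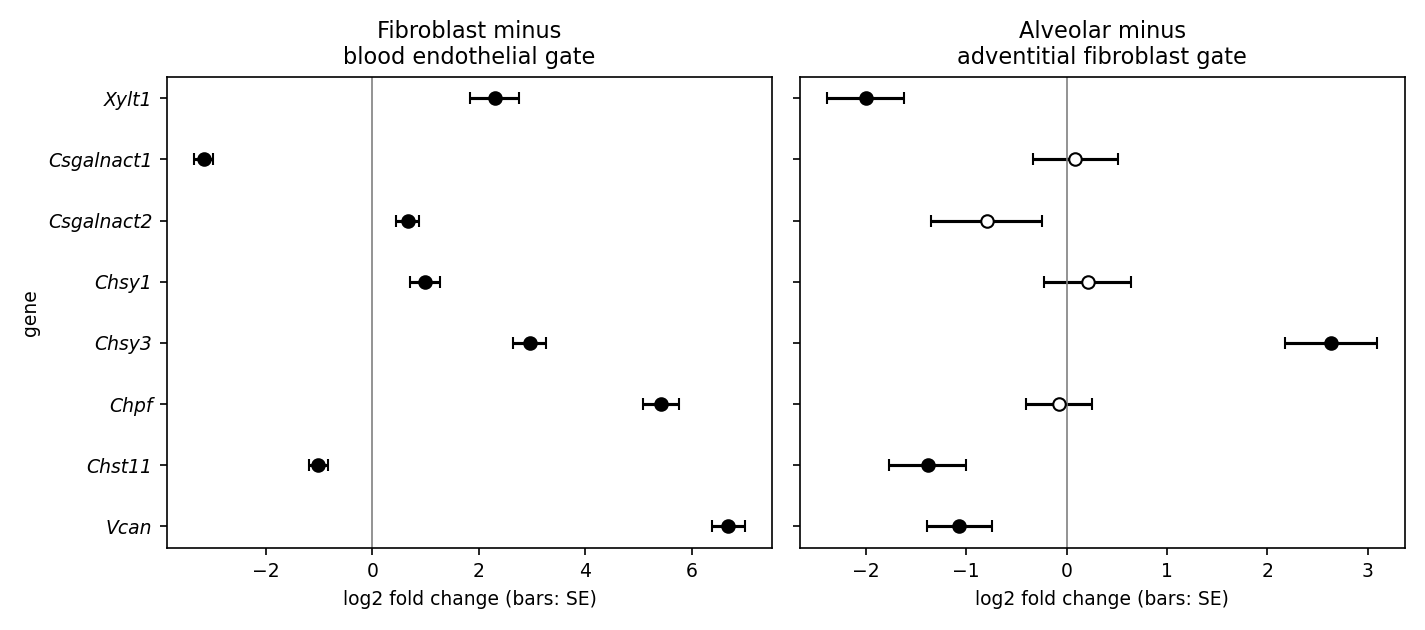
Log2 difference of each of the 8 genes between gates of the same mice (points, with bars of 1 SE), for fibroblasts minus blood endothelium on the left and alveolar minus adventitial fibroblasts on the right; filled points passed edgeR's thresholds. Chsy3 is positive in both panels (2.95 and 2.64), Csgalnact1 is the most negative on the left (-3.16), and Vcan and Chpf on the left and Xylt1 and Chst11 on the right passed the count filter through 1 gate alone. The Chsy3 points are a description, since its fibroblast counts chose the gene.

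Of the 53 further pathway genes, 31 were tested between fibroblasts and endothelium and 21 of them passed the count filter within each gate, of which 8 were higher in fibroblasts and 3 lower. Over all genes tested, including those that passed through 1 gate alone, 32.8% were higher and 31.5% lower. The counts are therefore not read as a trait of the pathway. Ugdh, which makes UDP-glucuronic acid, was higher by 3.81 on the log2 scale, and Bgn, which encodes the small proteoglycan biglycan, by 6.16. The linker enzyme B3gat3 was higher (1.01), as were the lysosomal enzymes Hexa (2.18), Arsb (2.10) and Gusb (0.71) and the heparan polymerase Ext1 (0.48). Srgn, the proteoglycan of secretory granules, was lower (-4.36), as were the endothelial thrombomodulin gene Thbd (-1.80) and the heparan sulfotransferase gene Ndst1 (-0.84).

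A further 10 called genes passed the filter through 1 gate alone, so their direction was set by it. Through fibroblasts these included Dcn, the decorin gene (10378 ± 2865 CPM), Has1 (516 ± 136 CPM), Ust, a uronyl sulfotransferase (261 ± 54.9 CPM), and Papss2, which makes the sulfate donor (57.2 ± 8.62 CPM; SD, n = 6 each). In 989 endothelial cells 38, 8, 10 and 7 UMIs of them were found.

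Against pericytes and smooth muscle cells, which were few, 7 of the 8 genes entered the fit in 3 mice and 0 were called by edgeR or by DESeq2, with 2 at an unadjusted edgeR p under 0.05, where 10.5% of all genes were called. In IgG1 replicate 3 and ipilimumab replicates 2 and 3, Chsy3 was 44.8, 223 and 142 CPM in fibroblasts and 275, 0 and 566 CPM in the contractile gate, higher there in 2 of the 3 mice. The log2 difference of Chsy3 was -1.02 (SE 0.85). It was -2.09 without ipilimumab replicate 2 and -2.06 with cells called by UMI total alone. Since the fibroblast counts of Chsy3 chose the gene, these differences are a description without a test. Chst11 (2.06, SE 0.92), Xylt1 (1.71, SE 0.70), Vcan (1.61, SE 0.89) and Chpf (1.22, SE 0.82) had positive values, Csgalnact1 (-1.17, SE 0.69) and Csgalnact2 (-0.64, SE 0.61) negative ones. Of these, Xylt1, Chst11 and Vcan were called when every mouse with a cell was kept (edgeR adjusted p = 0.0238, 0.0177 and 0.0252), and Vcan without IgG1 replicate 3 (edgeR adjusted p = 0.0104). Chsy3 and Csgalnact1 passed the filter within the contractile gate and the other 5 through fibroblasts alone. Of the 53 further genes 5 passed the filter within each gate and 2 of these were called, Dcn (3.73) and Bgn (1.83), both higher in fibroblasts.

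The genes whose levels across cell types most resembled those of Chsy3 were not chondroitin genes. Over 14 gates with at least 50 cells and 15850 genes, Pearson's r of the mean log2(CPM + 10) with Chsy3 was 0.95 for Lag3, an inhibitory receptor, 0.94 for Pcdh7, a protocadherin, 0.94 for Gfra2, a co-receptor for glial growth factors, and 0.92 for Gm36862. Among the other chondroitin genes r was 0.57 for Chpf, 0.42 for Vcan, 0.21 for Csgalnact1, -0.01 for Csgalnact2, -0.04 for Chst11, -0.27 for Chsy1 and -0.35 for Xylt1. All points come from the same 6 libraries and differ in depth, and the fibroblast counts that chose Chsy3 are among them, so these values are a description. A gene without UMIs stands at 3.32 on this scale. The highest gate, alveolar fibroblasts, reached only 4.55 for Gm36862, 5.64 for Lag3 and 6.64 for Gfra2, and most other gates lay near the floor for these genes. Pcdh7, like Chsy3, was high in alveolar fibroblasts (8.81 on the log2 scale), adventitial fibroblasts (8.74), dendritic cells (8.13) and general capillary cells (6.66) and low in aerocytes (3.52).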

How the data were processed

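Raw gene-by-barcode UMI count matrices of 6 libraries (10x 3′ v3.1) were deposited by the authors. Per the labels, the submitters' processing notes name Cell Ranger 7.0.0 and mm10, and whether intronic reads were counted is not given in the sources used here. Cells were called by UMI total plus a test of profile against ambient RNA, filtered (at least 200 genes, at most 10% mitochondrial UMIs) and cleared of predicted doublets. UMIs were summed per mouse and gate, leaving out mice with fewer than 5 cells, and tested with edgeR 4.0.16 (R 4.3.3; TMM, filterByExpr, quasi-likelihood, Benjamini-Hochberg adjustment over all genes tested), with the mouse as a block between gates and without a block between treatments. In simulated fibroblast sums, drawn with the same dispersion for every gene, 200 genes were changed 4-fold and 185 of them were tested. Of these 185, 85.4% were recovered among 6666 genes, a share that need not hold for genes with few or uneven UMIs. The 8 genes, the gene lists and the tests were chosen with earlier results of these data known. Named genes were the 8, pathway genes called between treatments, up to 4 of each list with the largest called change between gates, and the 5 genes most like Chsy3, of which 1 is not reported here. The comparisons of treatments (general capillary, aerocyte, dendritic, neutrophil and NK cell gates), the single-cell exclusion and the analysis with every mouse kept were added after the data were seen. Replicates were separate mice, and UMI counts per library limit the precision of low levels. No sequence is printed.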

Additional observations from a re-analysis of the deposited data

Results flagged for a closer look

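Chsy3 was also present in cells that entered no gate and so no comparison. In 32 ungated cells with mesenchymal markers, 97 Chsy3 UMIs lay in 19 cells (368 CPM), from 4, 3 and 9 cells of IgG1 replicates 1 to 3 and 9, 1 and 6 cells of ipilimumab replicates 1 to 3. The other 1891 ungated cells held 256 Chsy3 UMIs in 72 cells, at 10.8 ± 4.27 CPM (SD, n = 6 mice). These are 353 of the 1515 Chsy3 UMIs in all cells used, and both sums exceed the 3 UMIs that a count of 0 allows. With 3 mice a group, no group was large enough for a search for single mice that stand apart.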

How the results depend on the processing

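For a chosen set of the members' log2 fold changes, the alternatives changed neither direction nor, where thresholds applied, the side of them in 365 cases. Chsy3 between treatments in the fibroblast gates had no test, and was counted there when it moved by less than the SD between mice. A further 9 cases passed only under the alternative and 7 only in the values reported. Without a test, 2 moved beyond that SD, and 3 changed sign. The 3 changes of sign were in blood endothelium between treatments: Xylt1 was 1.87 with Leiden clusters, and without IgG1 replicate 3 Csgalnact1 was 0.058 and Chsy3 -0.036, in ranges of -0.23 to 0.058 and -0.036 to 1.64 with 1 mouse left out. Counts of genes called between treatments moved more, from 1 in fibroblasts, 6 in alveolar and 0 in adventitial fibroblasts, 151 in the contractile gate, 0 in blood endothelium, T cells, B cells and alveolar macrophages, and 7 in monocytes, in gates where edgeR gave 301 to 890 genes at an unadjusted p under 0.05. With DESeq2 they were 41 in fibroblasts, 24 in adventitial fibroblasts, 58 in the contractile gate, 108 in endothelium, 61 in T cells, 25 in B cells, 2 in alveolar macrophages and 142 in monocytes. Without a filter on low counts they were 191 in fibroblasts, 39 in alveolar and 99 in adventitial fibroblasts, 343 in endothelium, 54 in T cells, 178 in B cells, 1 in alveolar macrophages and 295 in monocytes. Leiden clusters gave 0 in fibroblasts, 2 in endothelium, 1 in T cells and 52 in monocytes. Keeping doublets gave 2 in fibroblasts and 1 in adventitial fibroblasts, calling cells by UMI total alone gave 3 in monocytes, and a minimum of 4 markers gave 16 in alveolar fibroblasts. Keeping every mouse with a cell gave 0 in alveolar fibroblasts and in the contractile gate, and leaving out the cell with most Chsy3 UMIs gave 0 in fibroblasts. Leaving out 1 mouse gave 0 to 2 in fibroblasts, 22 to 36 in alveolar and 0 to 4 in adventitial fibroblasts, 0 to 83 in endothelium (83 without IgG1 replicate 1), 0 to 3 in T cells, 0 to 2 in B cells and 0 to 60 in monocytes (60 without ipilimumab replicate 3). Between gates, fibroblasts against the contractile gate gave 485, and 778 with DESeq2, 820 without the filter, 774 without the mouse block, 314 by UMI total alone and 263 to 669 with 1 mouse left out; alveolar against adventitial fibroblasts gave 839, and 489 to 703 with 1 mouse left out. The cause of these changes was not tested.

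Same-numbered mice of the groups did not deviate together in fibroblasts (correlations -0.03, -0.03 and 0.01), so the numbers were not taken as pairs. With the replicate number as a block the counts were 1 in adventitial fibroblasts, 2 in T cells, 1 in B cells, 1 in alveolar macrophages and 0 in monocytes. The block and leaving out an IgG1 mouse were not run in the alveolar fibroblast and contractile gates, which had 1 IgG1 mouse with 5 cells, and Leiden clusters were not used for the fibroblast subsets.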

Other observations

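Dendritic cells were the main site of Chsy3 outside the mesenchyme, and there the transcript was uneven. Cells with more UMIs of Xcr1 and Clec9a, markers of the cross-presenting type, held 224 Chsy3 UMIs in 49 cells (191 CPM). Cells with more UMIs of Cd209a and Clec10a, markers of the other conventional type, held 40 in 48 cells (40.8 CPM). The Xcr1 and Clec9a cells were higher in 6 of 6 mice, with 135, 378 and 209 CPM against 12.2, 113 and 38.7 CPM in IgG1 mice and 185, 67.8 and 212 CPM against 26.6, 65.9 and 20.7 CPM in ipilimumab mice. IgG1 replicate 1 had 4 of the Cd209a and Clec10a cells and IgG1 replicate 3 had 4 of the Xcr1 and Clec9a cells, fewer than the 5 required elsewhere, and each of the other mice had between 6 and 14 of either kind. The split was made after the values were seen and was not tested. The remaining 28 dendritic cells, with a tie or neither, held 36 Chsy3 UMIs.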
